A study of Mus musculus with 8 samples.

Results

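Mmp3+ fibroblasts are 1 of 5 fibroblast classes that a deposited per-cell annotation gives to mouse synovium, the membrane lining the joint. They were taken as every cell annotated Mmp3+, joined to the counts by library and barcode. This gave 9770 cells of 21731 annotated fibroblasts, 24227 annotated cells and 47658 barcodes. The label matched its markers: Mmp3, Saa3 and Nos2 were each highest in this class among the 5, although lining fibroblasts came close for all of them.

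Synovial fibroblasts form a lining layer, which makes lubricin and touches the joint space, and a sublining layer around vessels. In arthritis they release proteases that cut cartilage matrix and cytokines that call in leukocytes and drive osteoclasts. Mmp3 encodes stromelysin, a matrix protease that also activates other proteases. Saa3 encodes an acute-phase protein that can be made outside the liver, and Nos2 encodes the inducible nitric oxide synthase. IL-17 is known to act with TNF on fibroblasts, in part by stabilizing short-lived messenger RNAs of inflammatory genes.

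All arthritic animals were hTNFtg197+, strain B6-Tg(TNF)197Gkl, which carry human TNF, and all had received Il23mc for 9 days. They were given an antibody to human TNF (TNF-inhibited, 3 animals), an antibody to mouse IL-17a (IL-17-inhibited, 3 animals), or no inhibitor and a sort for FAP and Pdpn (FAP-sorted, 5 animals), or were untreated apart from Il23mc (3 animals). Healthy references were untreated wild-type animals, 1 in each library other than the FAP-sorted one. Animals were 8 to 10 weeks old, and cells came from ankle and wrist joints. All cells were sorted as viable and CD45-, with FAP and Pdpn added in 1 library, and hashtag antibodies to CD45 and B2m marked the animal of each cell. Each condition filled 1 library, so an inhibitor and its library cannot be told apart, and the same holds for the FAP sort.

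The class held 2259 cells in TNF-inhibited, 1920 in IL-17-inhibited, 3680 in FAP-sorted and 1854 in untreated animals, with 6111240 to 24540908 unique molecular identifiers (UMIs, counted RNA molecules) per arthritic animal. The healthy animals held 57 Mmp3+ cells, with 119721 to 204102 UMIs each. In those 57 cells the healthy hashtag had the highest count in 6 (10.5%), against 9642 of 9713 cells (99.3%) for the arthritic hashtags. The healthy label of most of these cells therefore goes against their raw hashtag counts. The comparison with healthy animals is given with all 57 cells and with only those 6. A total of 10 Mmp3+ barcodes occurred in more than 1 library. Col1a2, a collagen gene of fibroblasts, stood at 1620 to 9070 CPM (counts per 1000000 UMIs of the animal's Mmp3+ cells) over the arthritic animals, while the 8 leukocyte genes, Cd74 included, summed to 15.9 to 127 CPM.

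The promoters below belong to genes that the results turn on, acute-phase genes and a protease gene that fell under IL-17 inhibition and antiviral genes that rose under TNF inhibition. They are RefSeq sequences of build GRCm38.p6, from 250 bases before to 50 bases after the start, written along the gene's own strand. Saa3 lies at chr7:46715627-46715926 on the minus strand, Lcn2 at chr2:32387690-32387989 on the minus strand and Mmp3 at chr9:7445572-7445871 on the plus strand. Ifit3 lies at chr19:34583279-34583578 and Ifit1 at chr19:34640639-34640938, both on the plus strand. Capitals mark 3 motifs searched on both strands, C/EBP (TTGCNNAA), AP-1 (TGANTCA) and the interferon-stimulated response element (TTTC, 2 bases of any kind, TTTC), and none of the marked sites overlaps another.
Saa3: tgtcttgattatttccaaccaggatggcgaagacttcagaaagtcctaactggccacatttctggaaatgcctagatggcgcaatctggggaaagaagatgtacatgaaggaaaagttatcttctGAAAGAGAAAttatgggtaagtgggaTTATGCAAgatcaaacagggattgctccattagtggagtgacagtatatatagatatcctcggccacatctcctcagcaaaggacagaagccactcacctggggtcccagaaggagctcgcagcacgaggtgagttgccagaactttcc
Lcn2: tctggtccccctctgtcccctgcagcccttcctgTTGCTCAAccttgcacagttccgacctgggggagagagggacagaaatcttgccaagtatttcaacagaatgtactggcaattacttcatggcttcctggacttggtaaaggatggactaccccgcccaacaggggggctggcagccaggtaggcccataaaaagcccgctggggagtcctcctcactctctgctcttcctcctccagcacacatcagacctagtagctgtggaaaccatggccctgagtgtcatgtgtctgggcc
Mmp3: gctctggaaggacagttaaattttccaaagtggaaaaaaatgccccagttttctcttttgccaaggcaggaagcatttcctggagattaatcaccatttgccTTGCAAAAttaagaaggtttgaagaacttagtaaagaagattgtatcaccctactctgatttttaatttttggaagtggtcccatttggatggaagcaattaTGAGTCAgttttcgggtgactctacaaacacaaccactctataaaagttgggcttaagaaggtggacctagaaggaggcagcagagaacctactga
Ifit3: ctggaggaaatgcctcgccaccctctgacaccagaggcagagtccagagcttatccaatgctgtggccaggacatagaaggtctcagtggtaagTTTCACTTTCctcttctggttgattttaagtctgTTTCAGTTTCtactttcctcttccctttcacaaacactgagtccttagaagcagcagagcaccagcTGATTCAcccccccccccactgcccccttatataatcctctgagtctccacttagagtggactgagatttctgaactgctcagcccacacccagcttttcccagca
Ifit1: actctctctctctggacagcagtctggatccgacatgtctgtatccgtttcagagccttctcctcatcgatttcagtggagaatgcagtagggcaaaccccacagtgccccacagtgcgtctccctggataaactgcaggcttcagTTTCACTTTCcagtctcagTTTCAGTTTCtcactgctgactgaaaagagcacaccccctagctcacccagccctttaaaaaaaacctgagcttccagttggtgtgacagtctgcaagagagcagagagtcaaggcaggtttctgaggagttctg

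The C/EBP letters stood in the promoters of all 8 acute-phase genes that had an entry, of 10 on the list, and in 10.8% of 32851 promoters of the same length. The interferon letters stood in 15 of 23 promoters of the list of T-cell attractants and interferon-response genes, which holds 29 genes, and in 3.44% of all promoters. AP-1 letters occurred in 7.81% of promoters and, of the 5 shown, in Mmp3 and Ifit3. The NF-kB letters (GGGA, any base, TTTCC), present in 0.411% of promoters, were in none of the 5. A match describes letters in this window and is not a measured binding site.

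What set the class apart was described in the 3 untreated animals, without a test, because the classes were made from these cells. Mmp3 was at 24100, 22500 and 22500 CPM in Mmp3+ fibroblasts, 14100, 17900 and 17000 CPM in lining fibroblasts and 3330, 2660 and 2740 CPM in Il6+ fibroblasts. Saa3 was at 78900, 62000 and 58700 CPM in Mmp3+, 52000, 61000 and 42300 CPM in lining and 5970, 3820 and 5010 CPM in Il6+ fibroblasts. Nos2 was at 177, 260 and 426 CPM in Mmp3+, 162, 337 and 298 CPM in lining and 21.9, 26 and 25.9 CPM in Il6+ fibroblasts. For Mmp3 the Mmp3+ animals lay above every lining value, while for Saa3 and Nos2 the values of Mmp3+ and lining fibroblasts overlapped. Pi16+ fibroblasts were lowest of the fibroblast classes for all 3 genes, with means of 816, 1620 and 8.81 CPM.

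**Figure D1:**
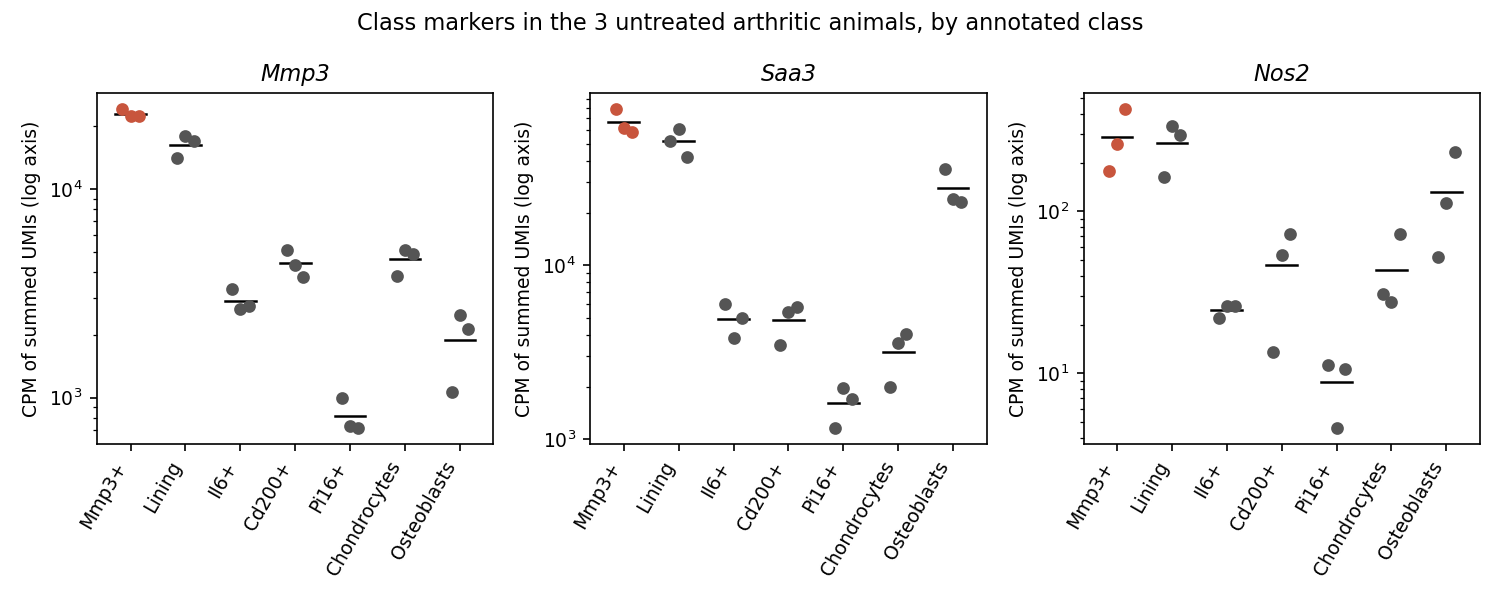
Levels of Mmp3, Saa3 and Nos2 (CPM of summed UMIs, log axes) in the annotated classes, with 1 point for each of the 3 untreated animals and a line at their mean. Mmp3+ fibroblasts, at 22500 to 24100 CPM, lie above the lining fibroblasts for Mmp3 and overlap them for Saa3 and Nos2.

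Within the class sums, cells of the lining class held Mmp3 less evenly. The median cell held 190 Mmp3 UMIs per 10000 in Mmp3+ fibroblasts, with quartiles of 83.3 and 317, against 67.0 in lining fibroblasts, with quartiles of 7.35 and 270. The share of cells with a Nos2 UMI was 64.4% in Mmp3+, 62.7% in lining, 11.6% in Il6+ and 11.1% in Pi16+ fibroblasts, and 20.2% in chondrocytes as a gauge of free RNA. Thinned to 5000 UMIs per cell, these shares were 43.2%, 40.5%, 6.66%, 3.85% and 9.94%. The Il6+ and Pi16+ shares lay below that of chondrocytes and may be background. Free RNA was not measured, and RNA that chondrocytes make themselves was not told apart from it. Median depth was 22191 UMIs per cell in Mmp3+ and 22432 in lining fibroblasts, 10248 in Il6+ and 11677 in Pi16+ fibroblasts and 17308 in chondrocytes.

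The gene with the largest ratio over every other fibroblast class was Fabp7, which encodes a fatty acid binding protein. It averaged 86.9 CPM in Mmp3+ fibroblasts and at most 4.25 CPM in another fibroblast class, a ratio of 20.4, and was highest in Mmp3+ in all 14 arthritic animals. Untreated animal 1 carried this mean, as the untreated animals held 171, 42.0 and 47.3 CPM, and without it the mean was 44.6 CPM and the ratio 7. Ctla2a, an inhibitor of cathepsin-like proteases, followed with 328 CPM in Mmp3+ against 47.9 CPM in Il6+ fibroblasts. Mmp12, macrophage elastase, stood at 87.2 against 16.1 CPM in Cd200+ fibroblasts, and Ctsc, the protease that activates granule serine proteases, at 293 against 94.4 CPM. Without untreated animal 1 the mean of Ctla2a was 207 CPM and its ratio 4.97 in place of 6.85, and without untreated animal 2 that ratio was 10.3. The ratio of Mmp12 was 3.43 without untreated animal 2 and 7.79 without untreated animal 3, in place of 5.42. Ctla2a was highest in Mmp3+ in 11 and Mmp12 in 12 of the 14 arthritic animals.

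Genes of ligands were also among the leading 20. Tnfsf11, which encodes the osteoclast-forming ligand RANKL, averaged 240 CPM in Mmp3+ and 90.0 CPM in Cd200+ fibroblasts, the next class. The chemokine gene Cxcl16 averaged 181 CPM against 74.3 CPM in Cd200+ fibroblasts, and Ccl20, which encodes a ligand of CCR6 on T cells, 118 CPM against 56 CPM. The Ccl20 ratio of 2.11 was 1.37 without untreated animal 1 and 7.82 without untreated animal 3. Tnfsf11 and Ccl20 were higher still in osteoblasts, at 325 and 157 CPM. Cybb, the catalytic subunit of the phagocyte NADPH oxidase, was at 85.5 CPM, against 31.6 CPM in Cd200+ fibroblasts, but led in 8 of the 14 arthritic animals. The remaining genes of the leading 20 were Col18a1, Thbs4, Glrx, Tcim, Saa2, Csgalnact1, Ndufa4l2, Col6a3, Cyp7b1, Saa1, Spp1 and Chl1, at ratios of 1.72 to 2.69.

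Few genes belonged to the class alone at this size of difference. Of 2386 genes with at least 50 CPM in Mmp3+ fibroblasts, 331 were highest there and 12 of those were at least 2 times the next class. Of these 2386, 112 were at least 2 times higher in Mmp3+ than in Il6+ fibroblasts and 169 than in lining fibroblasts. In the other direction 215 genes were at least 2 times higher in Il6+ and 94 in lining fibroblasts. The latter counts run over a wider set, all genes with at least 50 CPM in either class, predicted genes included. The 10 acute-phase genes summed to 88800 CPM in Mmp3+, 83500 in lining and 19900 in Il6+ fibroblasts. In the glycolysis and hypoxia list 11 of the 21 members measured at 10 CPM or more were highest in Mmp3+, among them Slc2a1, which encodes a glucose transporter, and Ldha. Those 21 summed to 3620 CPM in Mmp3+, 3310 in lining and 2620 in Il6+ fibroblasts, so Mmp3+ and lining fibroblasts lay close. The share of all genes highest in Mmp3+ at that filter was not counted. The 12 genes of lining identity summed to 8550 CPM in Mmp3+ and 56900 CPM in lining fibroblasts, and the 15 sublining genes to 5160 CPM in Mmp3+ and 17800 CPM in Il6+ fibroblasts. At the other end, Fgl2, a fibrinogen-like gene, was at 111 CPM in Mmp3+ and at least 345 CPM in each other class, and Errfi1, a brake on EGF receptors, at 524 against at least 1370 CPM.

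Mmp3+ cells made up 55.1, 55.8 and 40.1% of the annotated fibroblasts in TNF-inhibited animals, 41.6, 31.9 and 41.1% in IL-17-inhibited animals and 37.3, 36.1 and 43.0% in untreated animals. The TNF-inhibited mean was 50.3% ± 8.87 and the IL-17-inhibited mean 38.2% ± 5.46, against 38.8% ± 3.69 in untreated animals (SD, n = 3 each). An exact permutation test of the F statistic of the 3 groups, over 1680 arrangements of the animals, gave p = 0.139. The difference of 11.6 percentage points for TNF inhibition became 16.7 without TNF-inhibited animal 3, with an exact permutation p of 0.0321 over the groups. In FAP-sorted animals the share was 61.5% ± 9.93 (n = 5), or 51.5 to 73.6%, above every untreated animal. For that difference of 22.7 points an exact permutation test over 56 splits, two-sided, gave p = 0.0357. Without untreated animal 1 or 2 or FAP-sorted animal 1 or 5 the difference was 21.3 to 24.8 points and no longer passed.

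Cells of the class were not alike. Spread was measured as the coefficient of variation between cells beyond counting error, in 3058 genes that averaged at least 0.5 UMIs per cell in each of the 14 arthritic animals. Its median over genes was 0.514. Ibsp, which encodes bone sialoprotein, led with 9.99, followed by Ctla2a with 6.73, the acute-phase gene Saa2 with 6.64, Spp1, which encodes osteopontin, with 6.19, Ccl20 with 5.60 and the B-cell attractant Cxcl13 with 5.29. A total of 15 genes were among the 50 most variable in all 14 animals, and these 6 belonged to them. The naming genes varied less, Mmp3 with 0.93, Saa3 with 0.979 and Nos2 with 1.82, and the ribosomal gene Rplp0 had 0.294. Ibsp is also an osteoblast gene, and Spp1 averaged 15000 CPM in osteoblasts and 451 CPM in Mmp3+ fibroblasts of untreated animals. No doublet caller was applied, and the part of osteoblast RNA or cells in this spread was not tested.

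**Figure D2:**
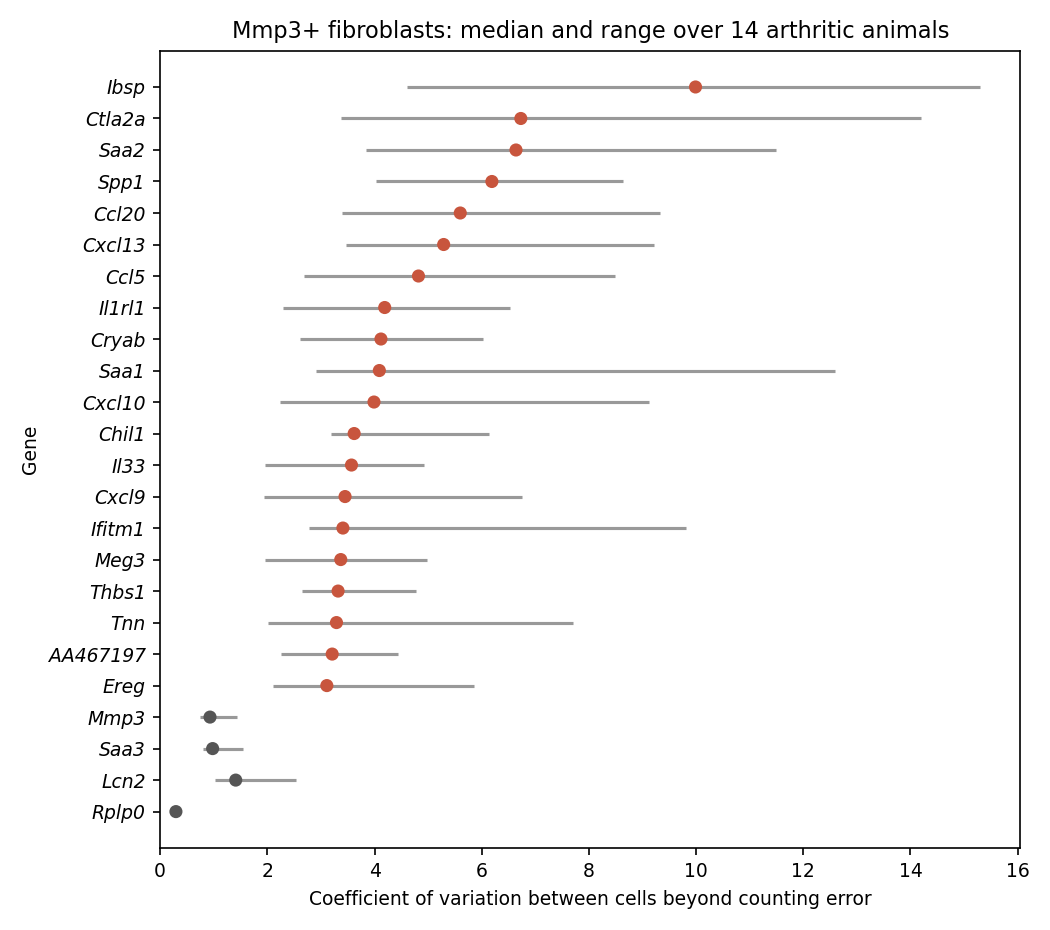
Coefficient of variation between Mmp3+ cells beyond counting error, as the median (point) and range (line) over the 14 arthritic animals, for the 20 genes with the largest median and for 4 genes of reference (grey). Ibsp leads with a median of 9.99, and Mmp3 and Saa3 lie near 1.

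The 1854 Mmp3+ cells of untreated animals were clustered on their own into 9 sub-clusters, which are described by number and leading genes. Cluster 1, with 22.1% of the cells, was led by Saa2, Spp1, Saa1, Penk and Ibsp, with Saa2 at 6.86 UMIs per 10000 inside and 0.631 outside it. Cluster 2, with 17.6%, was led by Pi16, Scn7a and Il33, and Pi16 had a UMI in 70.3% of its cells. Cluster 3 (11.6%) was led by Rasl11a, the retinoic acid enzyme gene Aldh1a2, Fabp7 and Ccl20. Cluster 4 (10.9%) was led by Slc1a2, Gbp9 and the chemokine gene Ccl5, and cluster 5 (10.7%) by Ereg, which encodes an EGF receptor ligand, Cxcl13 and Ctla2a. Fabp7 and Cxcl13 thus lead in different sub-clusters.

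Clusters 6 to 9 held the remaining cells. Cluster 6 (9.28%) was led by Ano1, Islr2 and Cdh13 and cluster 7 (8.52%) by Fmod, which encodes the matrix protein fibromodulin, Wif1, Cybb and the collagenase gene Mmp13. Mmp13 was at 91.9 UMIs per 10000 inside cluster 7 and 16.0 outside it, while Lcn2 was at 11.7 in cluster 7 and 48.1 to 106 in the others. Cluster 8 (7.39%) was led by Ankrd37, the lactate transporter gene Slc16a3, Ndufa4l2, Bnip3 and Vegfa, genes known to respond to low oxygen. It had the highest Mmp3 level of the 9, 347 UMIs per 10000, and 7.71 of Nos2. Cluster 9 (1.78%) was led by the division genes Hmmr, Mki67 and Top2a. Every sub-cluster was present in each untreated animal, with the widest range for cluster 7, at 3.42, 12.2 and 7.01% of the cells.

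Within animals, cells rich in Mmp3 tended to be rich in Saa3 and Lcn2. After thinning to 10000 UMIs per cell, which left out 708 cells, Spearman's rho with Mmp3 across 270 to 983 cells per animal had a median of 0.38 for Saa3 (0.14 to 0.58 over 14 animals) and 0.38 for Lcn2 (0.11 to 0.58). It was 0.31 for Prg4, the lubricin gene, and 0.28 for the protease inhibitor gene Timp1. Col1a1, a collagen gene, had a median of -0.30 with a range of -0.53 to 0.13, and Cxcl13 and Spp1 had -0.02 and -0.06. These are descriptions across cells that share a library and its free RNA.

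To ask what the antibody to human TNF changed within the class, summed counts of TNF-inhibited and untreated animals were compared with edgeR's quasi-likelihood test. Interferon-induced genes were higher and several contractile and TGF-beta genes lower in TNF-inhibited animals. Of 13184 genes tested, 352 were higher (2.67%) and 291 lower (2.21%) at a Benjamini-Hochberg adjusted p under 0.05. Mmp3 was at 20700, 18700 and 21200 CPM in TNF-inhibited and 24100, 22500 and 22500 CPM in untreated animals, a log2 fold change of -0.11 ± 0.18 (SE; edgeR adjusted p = 0.748). Saa3 had -0.07 ± 0.20 (adjusted p = 0.888). Nos2 was at 367, 410 and 869 CPM in TNF-inhibited and 177, 260 and 426 CPM in untreated animals, with overlapping values, and did not pass with 1.01 ± 0.36 (edgeR adjusted p = 0.125).

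Of the genes named here, several that interferon induces rose, while Ifitm1, which encodes an interferon-induced membrane protein, fell by 1.51 ± 0.25. Ifit3, which encodes an antiviral protein that interferon induces, was at 30.2, 47.8 and 21.4 CPM in TNF-inhibited and 5.29, 4.50 and 7.09 CPM in untreated animals. The groups did not overlap, and the log2 fold change was 2.64 ± 0.32 (edgeR adjusted p = 0.00472). The share of cells with an Ifit3 UMI was 20% in TNF-inhibited and 5.66% in untreated Mmp3+ cells, against 10.2% and 4.03% of chondrocytes in the same libraries. Median depth was 20819 and 22191 UMIs in those Mmp3+ cells and 12702 and 17308 in the chondrocytes. Ifit1 rose by 2.30 ± 0.40, Rsad2, another antiviral gene, by 2.43 ± 0.60, the attractant of activated T cells Cxcl10 by 2.06 ± 0.38 and the gene of the T-cell inhibitory ligand PD-L1, Cd274, by 1.65 ± 0.26, with edgeR adjusted p between 0.0124 and 0.0456. On the list of T-cell attractants and interferon-response genes 11 of 27 members tested rose and 0 fell, with a median of 1.22 against 0.02 over all genes tested.

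Other rises lay outside the interferon list. Plac8, which encodes a small cysteine-rich protein, was at 80.8, 129 and 176 CPM in TNF-inhibited and 15.1, 26.4 and 31.6 CPM in untreated animals, with no overlap and a log2 fold change of 2.42 ± 0.34 (edgeR adjusted p = 0.00702). Zfas1 and Snhg16, RNAs that host small nucleolar RNAs, rose by 2.13 ± 0.27 and 1.86 ± 0.21. AA467197, which encodes a small mitochondrial protein, rose by 1.82 ± 0.33. Of the NF-kB and TNF feedback list 3 of 16 rose and 1 fell, with Nfkbia, the NF-kB inhibitor, at 0.41 ± 0.09, Tnfaip2 at 0.95 ± 0.21 and the adaptor gene Traf1 at -0.67 ± 0.12. The monocyte attractant Ccl2 rose by 1.01 ± 0.22 and the neutrophil attractant Cxcl1 by 0.58 ± 0.15.

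Several genes fell under TNF inhibition. Ltbp2, which encodes a microfibril protein of the latent TGF-beta binding family, was at 47.9, 50.5 and 41.7 CPM in TNF-inhibited and 106, 113 and 115 CPM in untreated animals. It fell by 1.17 ± 0.10 on the log2 scale without overlap (edgeR adjusted p = 0.0015). Acta2, smooth muscle actin, was at 9.09, 8.97 and 11.8 CPM in TNF-inhibited and 49.7, 31.9 and 35.8 CPM in untreated animals (-1.93 ± 0.18, edgeR adjusted p = 0.00193). Its share of cells with a UMI was 12.8% in TNF-inhibited and 28.9% in untreated Mmp3+ cells, against 10.2% and 25.6% of the chondrocytes of those libraries. Summed over cells, Acta2 was at 9.37 CPM in TNF-inhibited and 36.3 CPM in untreated Mmp3+ cells, and at 10.3 and 29.5 CPM in the chondrocytes. On the contractile and TGF-beta list 7 of 16 fell and 0 rose, with a median of -0.49, among them Tgfb1 (-0.42 ± 0.08) and Tpm1, a tropomyosin gene (-0.56 ± 0.11).

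Further genes that fell were Fabp7 (-2.26 ± 0.54), the leading gene of the class, which was at 20, 13.7 and 17 CPM in TNF-inhibited and 171, 42.0 and 47.3 CPM in untreated animals, the highest being untreated animal 1. The heparin-binding growth factor gene Ptn (-1.53 ± 0.18), Il4i1, which encodes an amino acid oxidase (-1.66 ± 0.31), the cell-cycle gene Ccnd1 (-1.23 ± 0.17) and the cytokine receptor chain gene Il2rg (-1.20 ± 0.28) fell as well. Notch3, a receptor of mural and perivascular cells, fell by 1.48 ± 0.25 at a low level of 1.83 to 4.09 CPM in TNF-inhibited and 6.38 to 9.02 CPM in untreated animals, as did the Notch target gene Heyl, at most 0.244 CPM in TNF-inhibited and 0.701 to 1.24 CPM in untreated animals, and the sublining marker Thy1 fell by 1.00 ± 0.17. Of the 10 acute-phase genes 1 fell, Orm1 (-0.89 ± 0.22), and of 16 matrix-degradation genes, 21 collagen genes and 17 cell-cycle genes 0 passed in either direction.

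The count of 643 genes fell to 64, 116 and 132 without untreated animal 1, 2 or 3 and to 189 without TNF-inhibited animal 2. Fitting the healthy animals too called 297 genes and lost Ccl2, Ccnd1, Cxcl1 and Nfkbia. Of the 28 genes called and named here 8 passed whichever animal was left out, Ifit3, Plac8, Zfas1, Snhg16, Acta2, Ptn, Ccnd1 and Ltbp2. With library as a term, which rests on 17 and 16 healthy-labelled Mmp3+ cells of these libraries, 2 genes passed, 0 of the 28 did and 12 turned direction, Ifit3 and Zfas1 among them. In Pi16+ fibroblasts labelled as the healthy animals pooled into the TNF-inhibited and untreated libraries, Ifit3 was at 8.58 and 11.5 CPM, Plac8 at 10.2 and 10.3, Zfas1 at 120 and 75.3, Snhg16 at 16.8 and 12.4 and Ltbp2 at 27.4 and 25.8 CPM. Ptn was at 33.5 and 47.3, Ccnd1 at 25.7 and 29.6 and Acta2 at 8.17 and 5.6 CPM. Zfas1, Snhg16, Ptn and Ccnd1 differed in the direction of the result, and Ifit3, Plac8, Ltbp2 and Acta2 did not. Other named genes went both ways, such as Cxcl10 (131 and 73.4) and Ccl2 (5220 and 4510) in its direction and Ifit1 (39.2 and 46.7) and Cd274 (2.86 and 5.29) against it. The healthy animals received no inhibitor, but their hashtag had the highest count in only 15.5 and 32.0% of these Pi16+ cells. Keratinocyte genes moved with the inhibitor too, 3 of 7 rising, with sums of 39.6 to 88.5 CPM in TNF-inhibited and 25.1 to 31.1 CPM in untreated animals, and the median deposited stress score was 0.75 to 0.93 in TNF-inhibited and 0.56 to 0.69 in untreated animals. The median mitochondrial share of a cell's UMIs was 1.87 to 2.05% in TNF-inhibited and 2.30 to 2.53% in untreated animals. Their part in these results was not tested.

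Mmp3+ fibroblasts of animals given the antibody to mouse IL-17a held less Mmp3, Saa3 and Lcn2 and more antigen-presentation RNA than those of untreated animals. Of 13184 genes tested, 645 were higher (4.89%) and 802 lower (6.08%). Saa3 was at 19800, 21100 and 29900 CPM in IL-17-inhibited and 78900, 62000 and 58700 CPM in untreated animals, with a log2 fold change of -1.59 ± 0.21 (edgeR adjusted p = 0.00224). Lcn2, which encodes an iron-sequestering acute-phase protein, was at 1970, 1390 and 2890 CPM in IL-17-inhibited and 8010, 7460 and 6220 CPM in untreated animals (-1.88 ± 0.25, edgeR adjusted p = 0.00224). Mmp3 was at 9290, 9520 and 14500 CPM in IL-17-inhibited and 24100, 22500 and 22500 CPM in untreated animals (-1.15 ± 0.18, edgeR adjusted p = 0.00501). No IL-17-inhibited animal reached an untreated one for any of the 3 genes, while Nos2 overlapped and did not pass (0.24 ± 0.36, edgeR adjusted p = 0.719).

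The fall covered most of the acute-phase list, on which 7 of 10 fell and 0 rose, with a median of -1.43 against 0.01 over all genes tested. Besides Saa3 and Lcn2, Saa2 fell by 1.99 ± 0.36, the plasma protein genes Orm1 and Orm2 by 1.53 ± 0.22 and 2.01 ± 0.34, and Saa1 and Steap4 passed too. On the IL-17-response list 8 of 20 fell and 1 rose. The granulocyte growth factor gene Csf3 fell by 1.89 ± 0.37, Il6 by 1.02 ± 0.15 and Ptgs2, the inducible prostaglandin synthase, by 1.29 ± 0.30, while Csf2, which encodes GM-CSF, rose by 1.96 ± 0.30. Csf2 was at 26.8, 25.8 and 13.2 CPM in IL-17-inhibited and 3.27, 6.60 and 4.89 CPM in untreated animals, without overlap. The attractant of B cells Cxcl13 fell by 1.93 ± 0.30, the formyl peptide receptor gene Fpr2 by 2.16 ± 0.34, Cd38 by 1.93 ± 0.29 and Sostdc1, an antagonist of BMP and Wnt signals, by 2.24 ± 0.36.

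Bone and matrix signals moved both ways. Tnfsf11 was at 158, 100 and 104 CPM in IL-17-inhibited and 247, 215 and 259 CPM in untreated animals (-1.10 ± 0.19, edgeR adjusted p = 0.00691). Csf1 and Il34, which encode the ligands of the macrophage and osteoclast receptor CSF1R, rose by 0.98 ± 0.11 and 1.30 ± 0.23. Of 16 matrix-degradation genes 3 fell and 1 rose: Adamts5, an aggrecan-cutting protease, fell by 1.00 ± 0.12, Mmp3 and Ctsl fell, and Timp3, a tissue inhibitor of metalloproteinases, rose by 1.2 ± 0.29. Lox, the enzyme that cross-links collagen, fell by 0.78 ± 0.09 and Fn1, fibronectin, rose by 0.93 ± 0.21. The complement gene Cfb fell by 0.76 ± 0.15. On the IL-6 family list 4 of 11 fell and 0 rose, among them Lif, a cytokine of that family (-1.03 ± 0.25).

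Antigen-presentation genes rose together. B2m, the light chain of MHC class I, was at 4350, 5800 and 5250 CPM in IL-17-inhibited and 1890, 2120 and 2770 CPM in untreated animals (1.08 ± 0.14, edgeR adjusted p = 0.00224), with no overlap. Of 13 class I presentation genes 9 rose and 0 fell, with a median of 0.79, among them H2-D1 (1.16 ± 0.15) and H2-K1 (1.09 ± 0.16), and the class I-like gene H2-Q6 rose by 1.81 ± 0.31. Under TNF inhibition 2 of these 13 rose as well, B2m among them, and 0 fell, with a median of 0.38. With IL-17 set directly against TNF inhibition, 3 of the 13 were higher and 0 lower, and B2m was not called. Cd74, the invariant chain of MHC class II, was at 23.5, 113 and 63.4 CPM in IL-17-inhibited and 2.18, 7.94 and 5.53 CPM in untreated animals (3.43 ± 0.51, edgeR adjusted p = 0.0035). Of 6 class II genes tested 4 rose, with H2-Aa at 2.68 ± 0.46, H2-Ab1 at 2.29 ± 0.41 and H2-Eb1 at 2.76 ± 0.53, at low levels of 4.24 to 45.9 CPM in IL-17-inhibited animals. The T-cell attractant Cxcl9 rose by 2.04 ± 0.53, Irf1 by 0.96 ± 0.23 and Ifit1 by 1.64 ± 0.40, among 7 of 27 T-cell attractant and interferon-response genes that rose.

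Class II RNA sat in few cells. A Cd74 UMI was found in 12.9, 26.7 and 19.6% of Mmp3+ cells of IL-17-inhibited animals and 2.74, 6.53 and 5.93% of those of untreated animals. The top 5% of cells held 73.7 to 83.9% of the Cd74 UMIs in IL-17-inhibited animals. In untreated animals, which held fewer Cd74 UMIs, they held 91.9 to 100%. Chondrocytes served as a gauge of free RNA, from which RNA that they make themselves was not told apart. A Cd74 UMI was in 12.5% of chondrocytes of the IL-17-inhibited library and 3.75% of those of the untreated one. Their median depths were 16513 and 17308 UMIs. The Mmp3+ shares over all cells were 20.1% and 5.66% at median depths of 21532 and 22191. In the IL-17-inhibited animals 175 Mmp3+ cells held at least 3 Cd74 UMIs. H2-Ab1 was at 202 CPM in these cells and 10.9 CPM in the 1534 cells with none. Ciita, the switch gene of class II, was at 2.02 and 0.176 CPM, from only 8 and 6 UMIs. The leukocyte genes Ptprc and Tyrobp had 2 and 0 UMIs in the 175 cells and 0 and 10 UMIs in the 1534 cells without Cd74. The collagen gene Col1a2 was at 3360 CPM in the 175 cells and 2780 CPM in the cells without Cd74.

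Other genes with large rises were Flt1, a VEGF receptor gene (2.34 ± 0.43), AA467197 (1.97 ± 0.33), the small heat-shock gene Hspb1 (1.41 ± 0.25) and the histone gene Hist1h2ap (3.01 ± 0.78), which was at 118 CPM in IL-17-inhibited animal 1 and 22.9 and 9.44 in the others. Acta2 rose by 0.75 ± 0.16, and 37.2% of Mmp3+ cells held an Acta2 UMI against 39.6% of the library's chondrocytes. Acta2 in untreated animals averaged 39.1 CPM in Mmp3+ fibroblasts, 8.24 in Il6+, 8.19 in lining and 0 in Pi16+ fibroblasts, 29.5 in chondrocytes and 102 in osteoblasts. The muscle gene Ckm fell by 1.98 ± 0.35, with all 8 muscle genes, whose sum was 47.0 to 54.8 CPM in IL-17-inhibited and 97.3 to 197 CPM in untreated animals. Keratinocyte genes rose in 4 of 7 cases, with sums of 62.7 to 68.6 CPM in the IL-17-inhibited group against 25.1 to 31.1 CPM in the untreated one. The median mitochondrial share was 1.78 to 1.99% with the antibody to IL-17a against 2.30 to 2.53% in untreated animals. The part of these other cells and of this share in the results was not tested.

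**Figure D3:**
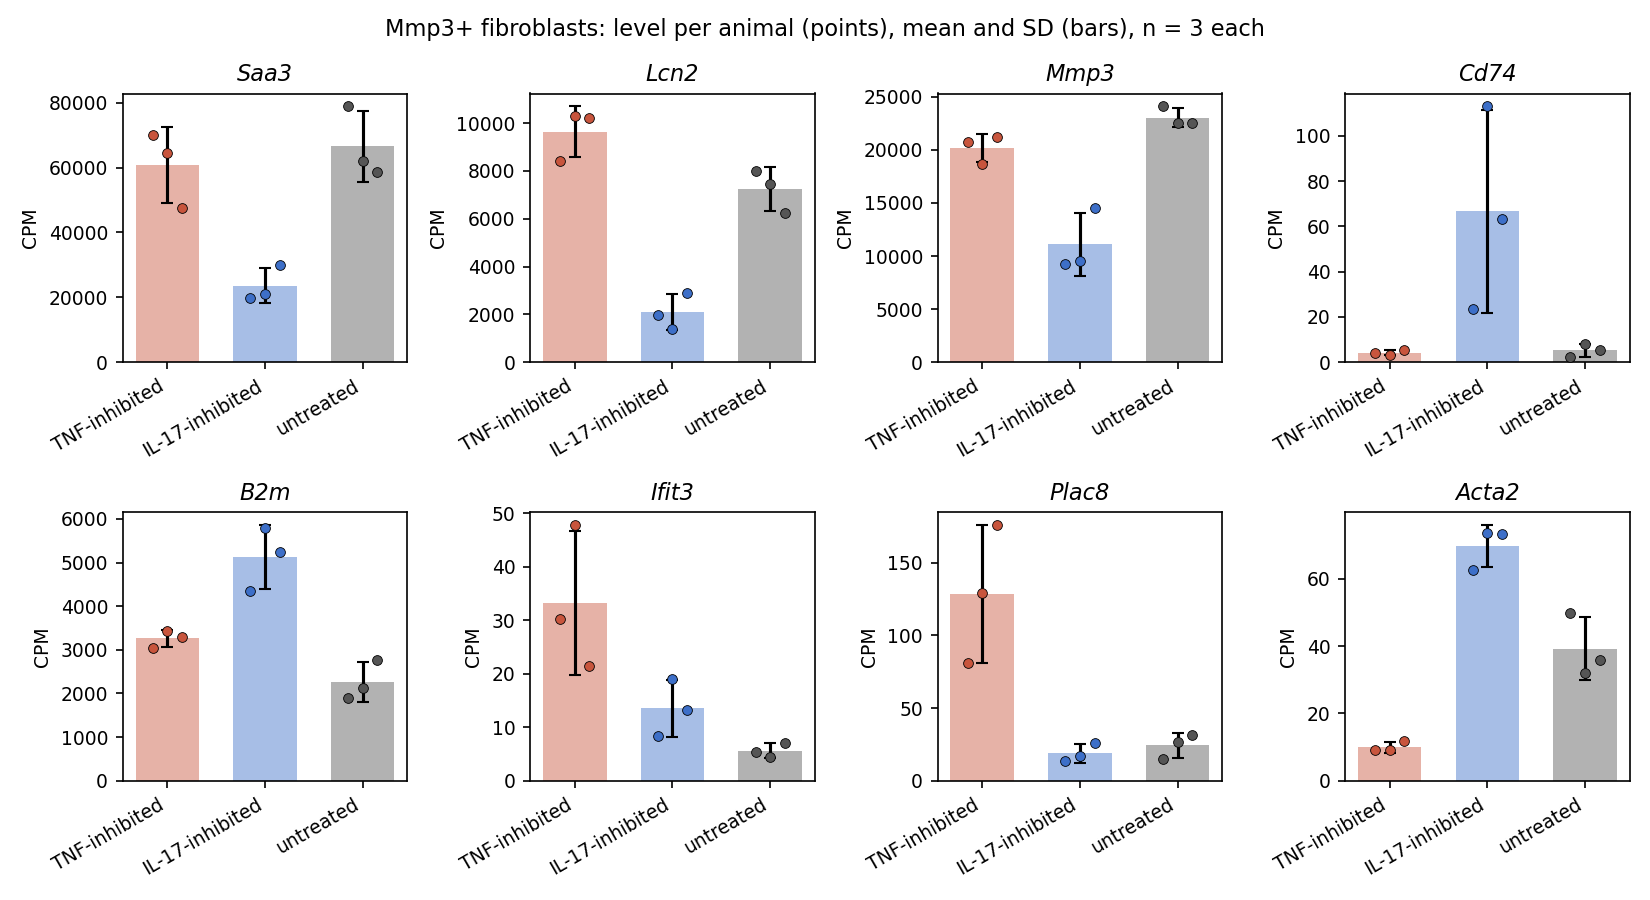
Levels of 8 genes (CPM) in the Mmp3+ fibroblasts of each animal (points), with the mean (bar) and SD (error bar) of TNF-inhibited, IL-17-inhibited and untreated animals, n = 3 each. Saa3, Lcn2 and Mmp3 are lowest in IL-17-inhibited animals, where Cd74 and B2m are highest, and Ifit3 and Plac8 are highest in TNF-inhibited animals.

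Leaving out 1 animal gave 542 to 1162 calls, the lowest without IL-17-inhibited animal 2, and 679, 548 and 675 without untreated animal 1, 2 or 3. Fitting the healthy animals too lost Cxcl9, Fn1, Il6 and Lox. Of the 40 named genes that were called, 29 passed in every such fit, Mmp3, Saa3, Lcn2, Cd74 and B2m among them. With library as a term, resting on 24 and 16 healthy-labelled cells, 4 genes passed, 0 of the 40 did and 18 turned direction, Saa3 among them. In healthy-labelled Pi16+ fibroblasts of the IL-17-inhibited and untreated libraries, Saa3 was at 536 and 2010 CPM, Lcn2 at 71.1 and 217, Mmp3 at 411 and 879, Ckm at 8.65 and 32.7, Hspb1 at 576 and 197, B2m at 744 and 629 and Cd74 at 0.961 and 2.18 CPM. In the same cells Il6 was at 468 and 764, Ptgs2 at 202 and 423, Cxcl13 at 4.32 and 38.6, Csf3 at 3.36 and 13.7, Lif at 22.6 and 50.4 and Tnfsf11 at 1.92 and 8.71 CPM. Adamts5 was at 297 and 423, Cfb at 143 and 211 and Csf2 at 4.80 and 1.56 CPM. The healthy animals received no inhibitor, but their hashtag had the highest count in only 7.51 and 32.0% of these cells. Each gene listed so far other than Cd74 differed between the libraries in the direction of the result. Cd74 rested on 2 UMIs in the IL-17-inhibited and 7 in the untreated library, too few to give a direction, and Csf2 on 10 and 5 UMIs. Named genes not listed so far went both ways. Against the result went Timp3 (570 and 919 CPM), Fn1 (2030 and 2350), Ifit1 (17.8 and 46.7) and Irf1 (235 and 283). So did H2-K1 (298 and 317), Csf1 (267 and 281), AA467197 (27.4 and 31.1) and Sostdc1 (3.36 and 0.622, from only 7 and 2 UMIs). The part of the libraries in the results was not tested.

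**Figure D4:**
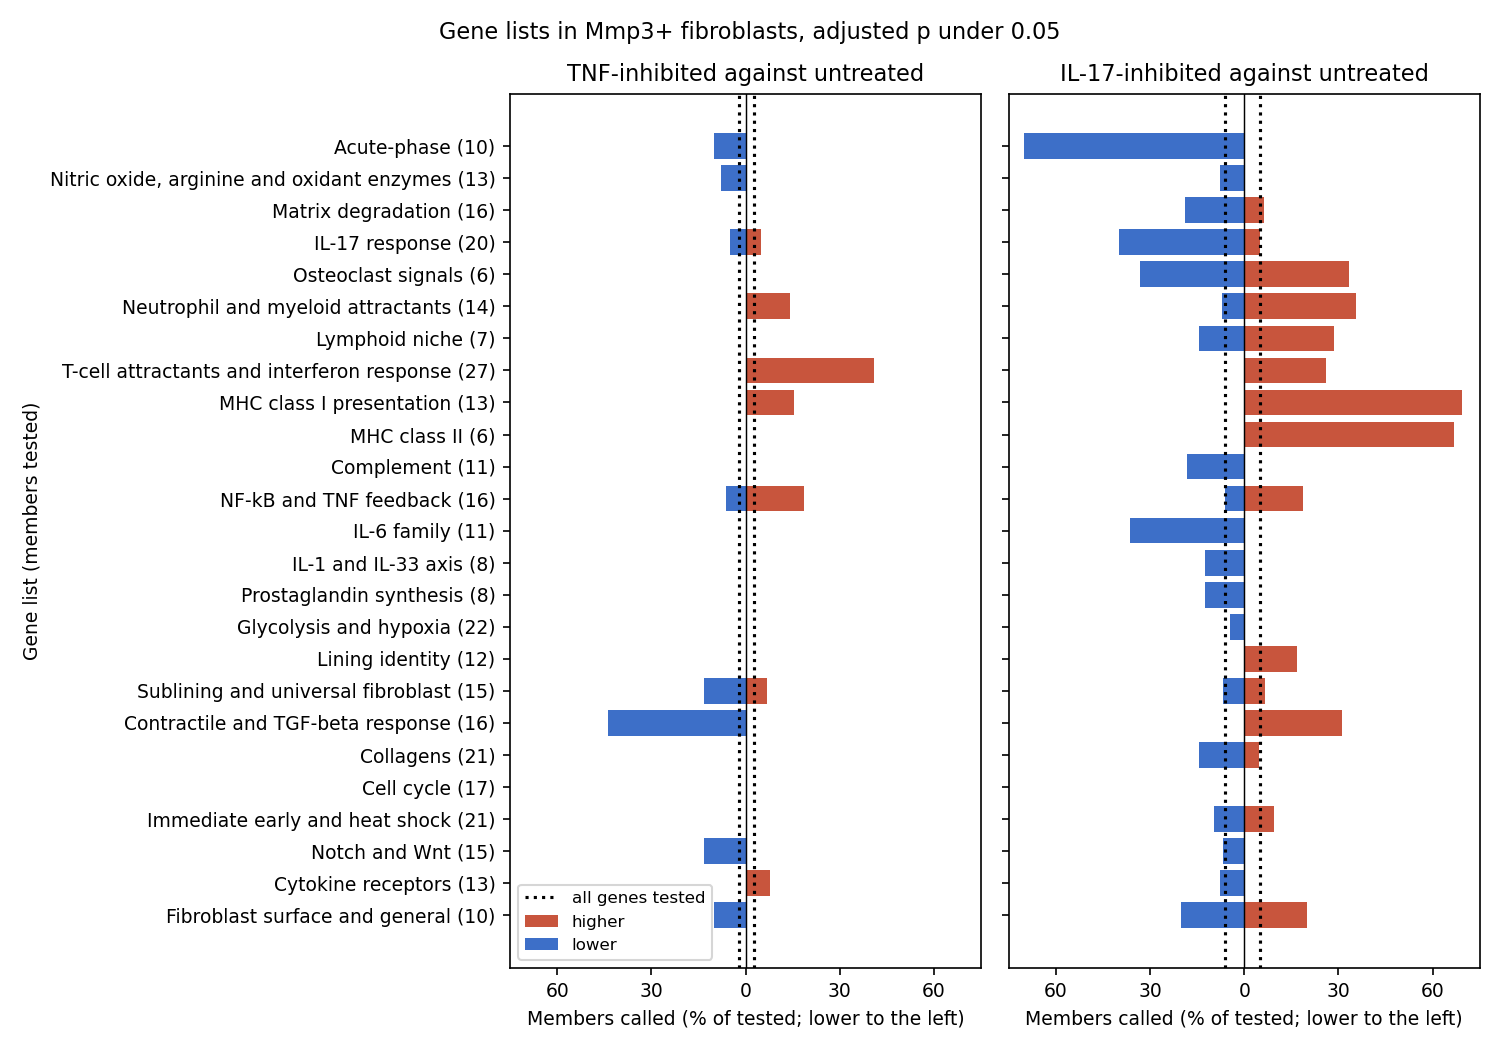
Share of tested members of 25 gene lists that were higher (red, right) or lower (blue, left) in Mmp3+ fibroblasts under each inhibitor at an edgeR adjusted p under 0.05, with the share over all genes tested as dotted lines. Under TNF inhibition the longest bars are the 11 of 27 interferon-response genes and 7 of 16 contractile genes, and under IL-17 inhibition the 7 of 10 acute-phase and 9 of 13 class I genes.

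Set directly against each other, IL-17-inhibited and TNF-inhibited animals differed in 1331 genes, 694 higher (5.26%) and 637 lower (4.83%) with IL-17 inhibition. Saa3 (-1.53 ± 0.21), Lcn2 (-2.37 ± 0.25), Mmp3 (-1.03 ± 0.18), Saa1 (-2.19 ± 0.36) and Mmp12 (-1.83 ± 0.31) were lower with IL-17 inhibition, and so were Plac8 (-2.90 ± 0.34) and Ifit3 (-1.48 ± 0.29). Cd74 (3.87 ± 0.53), Ccnd1 (2.71 ± 0.17), Il2rg (2.75 ± 0.27), Acta2 (2.69 ± 0.18) and Tagln, a contractile gene (3.00 ± 0.44), were higher. Ccnd1 was at 167, 153 and 108 CPM in IL-17-inhibited and 21.5, 16.6 and 20 CPM in TNF-inhibited animals, and Il2rg at 63.9, 50.7 and 30.1 against 8.01, 5.71 and 4.25 CPM, neither with overlap. Of the contractile list 11 of 16 were higher and of the collagen list 8 of 21 higher and 4 lower, while Nos2 did not pass (-0.78 ± 0.36, edgeR adjusted p = 0.204). All 12 named genes that were called passed whichever animal was left out, and the counts then ran from 658 without TNF-inhibited animal 2 to 1410, with 814 and 705 without IL-17-inhibited animal 1 or 2. In healthy-labelled Pi16+ fibroblasts of the IL-17-inhibited and TNF-inhibited libraries, Saa3 was at 536 and 2020 CPM, Lcn2 at 71.1 and 291, Saa1 at 17.3 and 60.1, Mmp3 at 411 and 591, Mmp12 at 1.44 (3 UMIs) and 6.13, Plac8 at 6.25 and 10.2 and Ifit3 at 2.88 and 8.58 CPM. The healthy animals received no inhibitor, but their hashtag had the highest count in only 7.51 and 15.5% of these cells. Each of these genes, all lower with IL-17 inhibition, differed in the direction of the result. Of the genes that were higher, Acta2 (10.1 and 8.17 CPM) and Ccnd1 (33.1 and 25.7) differed in its direction. Tagln (5.77 and 7.35) differed against it. Il2rg (0.961 and 0 CPM, 2 and 0 UMIs) and Cd74 (0.961 and 1.23 CPM, 2 and 3 UMIs) had too few UMIs to give a direction. The part of the libraries was not tested. No fit with library as a term was run for this comparison.

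Whether the class answered an inhibitor otherwise than Il6+ fibroblasts of the same animals was tested as a difference of the 2 responses. Under IL-17 inhibition 8 genes (0.0618%) responded with a higher and 22 (0.17%) with a lower log2 fold change in Mmp3+ than in Il6+ fibroblasts, of 12937 tested. Saa3 in Il6+ fibroblasts was at 2880, 2840 and 4820 CPM in IL-17-inhibited and 5970, 3820 and 5010 CPM in untreated animals, where the groups overlapped. Its response was -1.59 ± 0.21 in Mmp3+ and -0.46 ± 0.23 in Il6+ fibroblasts, a difference of -1.13 ± 0.13 (edgeR adjusted p = 0.0033). Lcn2 in Il6+ fibroblasts was at 1500, 1500 and 2070 CPM in IL-17-inhibited and 2150, 2140 and 2200 CPM in untreated animals, and the responses differed by -1.61 ± 0.18 (edgeR adjusted p = 0.0033). Ntn4, a netrin gene, differed by 1.45 ± 0.17. Mmp3 itself did not pass (-1.20 ± 0.30, edgeR adjusted p = 0.133).

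These 3 genes passed whichever animal was left out, with counts of 3 to 60 genes (60 without IL-17-inhibited animal 3), and the other 10 named genes did not. Saa3 and Lcn2 no longer passed when the other 4 fibroblast classes, lining included, were summed as the comparison, which called 12 genes. A Saa3 UMI was present in 99.9% of untreated Il6+ cells and in 100% of chondrocytes, so this share may be background, which was not measured. The genes that did not pass in every fit with 1 animal left out included Ptn (-2.35 ± 0.32), Ctla2a (-3.27 ± 0.56), Il4i1 (-1.34 ± 0.24), Mfap5, a microfibril gene (1.18 ± 0.20), and Timp3 (0.97 ± 0.18).

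For TNF inhibition 10 genes (0.0773%) responded higher and 11 (0.085%) lower in Mmp3+ than in Il6+ fibroblasts. Snhg16 (1.66 ± 0.23), Spp1 (1.46 ± 0.25), Snhg12 (1.37 ± 0.21) and the cell-cycle inhibitor gene Cdkn1a (0.94 ± 0.16) responded higher, and Ifitm1 (-1.77 ± 0.22), Acta2 (-1.34 ± 0.22), the hyaluronan synthase gene Has2 (-1.13 ± 0.20) and Cxcl16 (-1.10 ± 0.13) lower. None of the 12 named genes passed in every fit with 1 animal left out, and the count was 0 without TNF-inhibited animal 2 or untreated animal 1, by edgeR, with 1448 genes at an unadjusted p under 0.05 in the fit of all animals. Mmp3 and Saa3 did not pass (-0.37 ± 0.29 and -0.44 ± 0.13, edgeR adjusted p = 0.691 and 0.208).

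**Figure D5:**
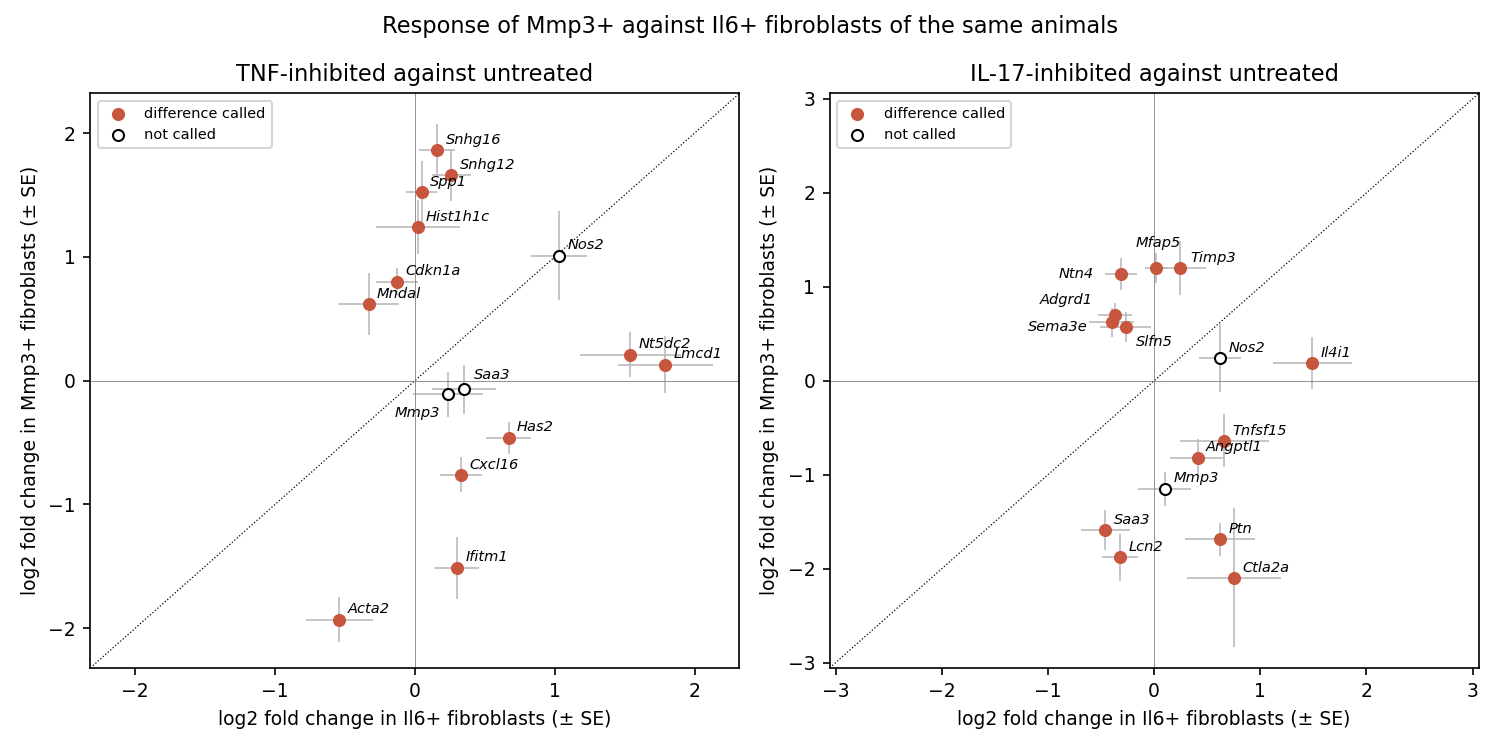
Log2 fold change under each inhibitor in Mmp3+ (vertical) against Il6+ fibroblasts (horizontal) of the same animals, with SE bars, for the genes named in this comparison; filled points have a called difference and the dotted line marks equal responses. Under IL-17 inhibition Saa3 and Lcn2 lie below the line, at -1.59 and -1.88 in Mmp3+ fibroblasts.

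The FAP and Pdpn sort was compared with the untreated animals to see which Mmp3+ cells it held. Of 12765 genes, 2451 were higher (19.2%) and 2356 lower (18.5%) in FAP-sorted animals. Fap rose by 0.53 ± 0.08, and Pdpn, the other sorted protein, fell by 0.59 ± 0.07 on the log2 scale. Collagen genes were higher in 13 of 21 cases and lower in 0, with Col1a2 at 6030, 5520, 7260, 9070 and 6230 CPM in FAP-sorted and 2980, 3410 and 3360 CPM in untreated animals (1.18 ± 0.14, edgeR adjusted p = 2.94e-04). Col8a1 (1.45 ± 0.13), Col12a1 (1.00 ± 0.12), the collagen-linked gene Cthrc1 (2.63 ± 0.22), the aggrecan gene Acan (3.41 ± 0.23) and the Wnt modulator gene Sfrp2 (3.03 ± 0.36) were higher as well. H19, an imprinted RNA, rose by 5.26 ± 0.68 and was at 27.1 to 149 CPM in FAP-sorted and 1.25 to 2.31 CPM in untreated animals.

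Inflammatory genes were lower in the FAP-sorted class. Il6 was at 564, 625, 615, 559 and 616 CPM in FAP-sorted and 1390, 1450 and 1470 CPM in untreated animals (-1.16 ± 0.06, edgeR adjusted p = 1.75e-06), without overlap. Mmp3 fell by 0.54 ± 0.07, with 13400 to 16100 CPM in FAP-sorted and 22500 to 24100 CPM in untreated animals, while Saa3 did not pass (0.16 ± 0.11, edgeR adjusted p = 0.297). Nos2 fell by 0.89 ± 0.26, a call that was lost without untreated animal 3. On the IL-17-response list 10 of 20 were lower and 1 higher, and on the interferon list 13 of 26 were lower and 1 higher. Csf2 (-2.05 ± 0.23), the antiviral gene Rsad2 (-2.48 ± 0.44) and Usp18, which encodes a brake on interferon signalling (-1.38 ± 0.17), were among those lower. Muscle genes summed to 2.24 to 3.27 CPM in FAP-sorted and 97.3 to 197 CPM in untreated animals, and the median deposited stress score was 0.09 to 0.32 against 0.56 to 0.69. Chondrocyte genes summed to 1190 to 1610 CPM in FAP-sorted and 799 to 1060 CPM in untreated animals, with Acan and Comp called higher of 4 tested. Neutrophil genes were called higher in 4 of 4 cases, with sums of 96.1 to 134 CPM in FAP-sorted and 53.4 to 77.5 CPM in untreated animals. The median mitochondrial share was 3.07 to 3.35% in FAP-sorted and 2.30 to 2.53% in untreated animals, and the part of these in the results was not tested. Sort, library and the Cell Ranger version of the counts were the same split and cannot be told apart. Between 3248 and 5256 genes were called with 1 animal left out.

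Untreated and healthy animals could be compared in Mmp3+ cells only on the 57 healthy-labelled cells. Of 12751 genes, 618 were higher (4.85%) and 254 lower (1.99%) in untreated animals, with a median over all genes of 0.14. The split depended on the scaling and test, at 562 higher and 685 lower with DESeq2 and 446 and 316 with median-of-ratios size factors. Mmp3 was at 24100, 22500 and 22500 CPM in untreated and 12400, 14000 and 7820 CPM in healthy animals (1.48 ± 0.23, edgeR adjusted p = 0.00147), and Saa3 rose by 2.06 ± 0.43. Cxcl13 (4.96 ± 0.56), Tnfsf11 (3.72 ± 0.43), the haptoglobin gene Hp (2.57 ± 0.28), C3 (2.28 ± 0.29) and Mmp13 (1.76 ± 0.22) were higher in untreated animals, and Slurp1, an epithelial gene (-5.51 ± 0.38), and the growth factor gene Bmp6 (-5.27 ± 0.62) were lower. Nos2 did not pass (-0.90 ± 0.36, edgeR adjusted p = 0.171). With cells kept only where their own hashtag was highest, 541 genes were called, 483 higher and 58 lower, and with a library term 293. The hashtag rule left 6 healthy cells, 2, 3 and 1 in the TNF-inhibited, IL-17-inhibited and untreated libraries, so that fit rests on sums of very few cells. The library term lost 5 of the 12 named genes called, Cxcl13, Tnfsf11, Ctla2a, Nhsl2 and Uchl1. Keratinocyte genes summed to 25.1 to 31.1 CPM in untreated and 123 to 157 CPM in healthy animals, with Krt14 called lower of 7 tested. Mural genes summed to 54.5 to 62.2 CPM in untreated and 142 to 295 CPM in healthy animals, with Cspg4 and Mcam called lower, and the osteoblast genes Bglap and Bglap2 were called lower too. The median depth was 21884 to 22706 UMIs per cell in untreated and 3548 to 12454 in healthy animals. The part of these in the results was not tested.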

How the data were processed

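Synovial cells of 4 droplet libraries were analysed. The authors deposited raw UMI counts per gene, hashtag and barcode, made with Cell Ranger 6.0.0 and, for the FAP-sorted library, 5.0.0, per the file headers; the submitters' processing notes name Cell Ranger 6.0.6 and build mm10. A deposited per-cell table gave the class, the hashtag call, the mitochondrial fraction and a stress score whose genes are not given in the sources used here. No further cell filter or doublet caller was applied.

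For each animal the UMI counts of its Mmp3+ cells were added up, and the sums went into edgeR 4.0.16 under R 4.3.3 (TMM, its filter on low counts, quasi-likelihood, Benjamini-Hochberg adjusted p under 0.05); log2 fold changes carry SEs. The fits held the 9 arthritic animals of the unsorted libraries for the inhibitors, these and the 3 healthy animals for the comparison with healthy, and 5 FAP-sorted and 3 untreated animals for the sort. The difference between classes was fitted with the animal as a block. Simulated counts with known changes were recovered, in 69% of 100 genes changed by 1 and 94% changed by 2 on the log2 scale for TNF inhibition, 76 and 94% for the FAP sort, 17 and 44% for untreated against healthy animals and 39 and 79% for the class difference under TNF inhibition. CPM is plain UMIs per 1000000 of the class and animal. Shares of cells are given without intervals. Sub-clusters used scanpy 1.11.5 and leidenalg 0.10.2 (2000 variable genes, 20 components, 15 neighbours, resolution 0.6).

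Named genes were Mmp3, Saa3 and Nos2, the 20 largest identity ratios at 50 CPM or more, up to 8 of the largest called changes a direction at 10 CPM or more without overlap, up to 4 called members per list, and up to 6 called class differences a direction. A few named outside it were chosen after their values were seen: Ciita, Ptprc, Tyrobp and the pair of sorted proteins. Members and lists were chosen with earlier results of these data known. Pi16+ cells of healthy animals (232, 173 and 331 in the TNF-inhibited, IL-17-inhibited and untreated libraries) were added as a gauge of the libraries after the data were seen. Leaving each untreated animal out of the identity ratios was also chosen after seeing the data. The healthy hashtag had the highest count in 15.5, 7.51 and 32.0% of those Pi16+ cells in the TNF-inhibited, IL-17-inhibited and untreated libraries. Alternatives were DESeq2 1.42.0, median-of-ratios scaling, no filter, other samples, cells, blocks and terms, and each animal left out. A few genes that these rules name are not reported here.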

Additional observations from a re-analysis of the deposited data

Results flagged for a closer look

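H19 stood apart in 1 FAP-sorted animal, at 149 CPM in animal 4 against 27.1 to 54.5 in the other 4. It was the only one of 31 groups of 5 animals tested in which 1 animal lay beyond Dixon's limit, and chance flags about 1 in 20 groups.

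Responses that differed between Mmp3+ and Il6+ fibroblasts by edgeR's test of the difference are given as the difference of the log2 fold changes. Under TNF inhibition it was 1.66 for Snhg16, 1.46 for Spp1, 1.37 for Snhg12, 1.2 for the linker histone gene Hist1h1c, 1.01 for Mndal and 0.94 for Cdkn1a. It was -1.77 for Ifitm1, -1.70 for Lmcd1, -1.34 for Acta2, -1.28 for Nt5dc2, -1.13 for Has2 and -1.10 for Cxcl16. Under IL-17 inhibition it was 1.45 for Ntn4, 1.18 for Mfap5, 1.09 for Adgrd1, 1.03 for the semaphorin gene Sema3e, 0.97 for Timp3 and 0.88 for Slfn5. It was -3.27 for Ctla2a, -2.35 for Ptn, -1.61 for Lcn2, -1.34 for Il4i1, -1.29 for Tnfsf15, -1.23 for Angptl1 and -1.13 for Saa3.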

How the results depend on the processing

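With 1 animal left out in turn, calls ran from 64 to 561 for TNF inhibition, 542 to 1162 for IL-17 inhibition, 658 to 1410 for IL-17 against TNF inhibition, 3248 to 5256 for the FAP sort and 651 to 831 for untreated against healthy animals. They ran from 0 to 25 and 3 to 60 for the class differences under TNF and IL-17 inhibition. The Mmp3+ share differed by 8.84 to 16.7 points for TNF inhibition and 19.7 to 25.2 points for the FAP sort.

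Fitting all 12 animals, healthy included, called 297 genes for TNF and 817 for IL-17 inhibition, without Ccl2, Ccnd1, Cxcl1 and Nfkbia for TNF and Cxcl9, Fn1, Il6 and Lox for IL-17 inhibition. With library as a term the counts were 2 for TNF inhibition, 4 for IL-17 inhibition and 293 for untreated against healthy animals, and 541 for that comparison with cells whose own hashtag was highest. For the class differences DESeq2 called 74 under TNF and 80 under IL-17 inhibition, no filter 387 and 453, and the other 4 classes summed 12 under IL-17 inhibition. The cause was not tested. DESeq2, other scaling, no filter and own-hashtag cells moved the remaining total counts by less than 1.5 times, but for untreated against healthy animals the split of 618 higher and 254 lower became 562 and 685 with DESeq2, 446 and 316 with median-of-ratios size factors and 483 and 58 with own-hashtag cells.

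The library term turned these log2 fold changes under TNF inhibition: Ifit3 (-0.47), Rsad2 (-8.49), Ifit1 (-0.64), Zfas1 (-0.85), Cxcl10 (-1.13), Snhg16 (-0.01), AA467197 (-1.39), Cxcl1 (-0.49), Ccl2 (-0.80), Cd274 (-0.61), Nfkbia (-0.79) and Tgfb1 (0.07). Under IL-17 inhibition it turned Saa3 (0.71), Flt1 (-7.06), H2-Ab1 (-8.43), AA467197 (-1.57), Csf2 (-10.9), Cxcl13 (1.26), Cd38 (7.2), Orm1 (7.60), Adamts5 (0.38), Il6 (0.82), Csf1 (-0.70), Tnfsf11 (2.44), Il34 (-1.29), H2-Aa (-5.72), Lif (1.28), Ptgs2 (1.12), Acta2 (-0.32) and Lox (0.85). That term rests on 16 to 24 healthy-labelled cells per library.

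The hashtag numbers name an antibody and were not taken to pair animals. Same-numbered animals had correlations of -0.08 to 0.14. Those of TNF-inhibited and untreated animals were all positive, at 0.07 to 0.14, and those of their differently numbered animals all negative. With so few animals per group this check cannot decide whether animals were paired. A replicate block by number called 770, 1363 and 1331 genes for TNF inhibition, IL-17 inhibition and IL-17 against TNF inhibition. Of the named genes it lost Orm1 and Rsad2 for TNF and Hist1h2ap for IL-17 inhibition.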

Other observations

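Healthy-labelled Mmp3+ cells, 17, 24 and 16 in the TNF-inhibited, IL-17-inhibited and untreated libraries, differed from each other. AA467197 was at 473, 568 and 50.1 CPM in them and Ifit3 at 73.8, 9.80 and 8.35 CPM. Their sums held only 203160, 204102 and 119721 UMIs, so the lower Ifit3 values rest on very few UMIs. The healthy animals received no inhibitor, but their hashtag had the highest count in only 10.5% of these cells.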
